A study of Homo sapiens with 4 samples.

Results

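The genes described here code for the SR proteins and their relatives, the hnRNPs, the kinases that phosphorylate SR proteins (CLK1 to CLK4, SRPK1 and SRPK2) and the SR-like splicing activators TRA2A and TRA2B. They were taken from the array's own gene names: every gene probe whose name starts with SFRS, SRSF, HNRNP or HNRP, or is that of a CLK, SRPK or TRA2 gene. The rule found 46 genes with 1 probe each among 14297 gene probes: 16 SR and SR-related proteins, 22 hnRNPs and 8 CLK, SRPK and TRA2 genes. The rule uses names only, though it was written with earlier results of these data known.

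K562 is a human erythroleukemia cell line. Drug-treated K562 cells were compared with control K562 cells after 4 h on 4 two-colour Agilent arrays. The labels call the controls untreated, whereas the study's methods for gene expression describe controls given the vehicle. The labels alone do not settle this difference. Per the study's methods the drug was AC-1041, a thalidomide analog that binds lipid droplets. The treated RNA was labelled with Cy5 on arrays 1 and 2 and with Cy3 on arrays 3 and 4, and the RNA of the control cells carried the other dye on the same array. All values below are log2 ratios of treated over control cells, so that 1 is a doubling and -1 a halving of the spot signal relative to the array as a whole. Fewer transcripts per cell and fewer cells holding them cannot be told apart in such RNA.

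SR proteins bind exonic sequences through RNA recognition motifs and recruit the splicing machinery through a domain rich in arginine and serine. CLK and SRPK kinases phosphorylate that domain, which controls where SR proteins lie in the cell and how active they are. hnRNPs coat nascent transcripts, often work against SR proteins at the same splice sites, and also act in export, stability and translation of mRNA. Many genes of these families regulate their own mRNA through alternative exons or retained introns, which a single probe per gene cannot resolve.

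Of the 46 genes, 41 could be tested. SREK1 (SFRS12 on the array), HNRNPM (HNRPM) and RBMXL2 (HNRNPG-T) were not well above background in either channel on any array. HNRNPF and HNRNPA1 had spots marked as outliers on arrays 1 and 2, which left only arrays 3 and 4, with log2 ratios of -0.26 and -0.10 for HNRNPF and of 0.04 and 0.26 for HNRNPA1. In limma's fit with a dye term, 9 of the 41 genes were higher after treatment (adjusted p under 0.05), against 24.3% of all 8852 probes tested. Another 12 were lower, against 13.0% of all probes. The shares of the members were 22.0% and 29.3%.

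The dye orientation limits what these counts say. Over all probes tested the log2 ratios correlated at 0.81 between arrays 1 and 2 and at 0.94 between arrays 3 and 4, but at -0.29 to -0.12 between arrays of different orientation. Over the members these correlations were 0.74, 0.94 and -0.36 to -0.10. Which dye each RNA carried was taken from the labels and could not be checked in the files. Exchanged labels on the arrays of 1 orientation would turn the sign of their ratios and change every estimate below. The dye term passed an adjusted p of 0.05 for 26 of the 41 members (63.4%) and for 58.2% of all probes. When the dye term was left out, 0.582% of all probes were higher and 0.0448% lower in limma, and no member of 43 tested passed, the lowest adjusted p being 0.23 for SRSF8, and 4 had an unadjusted p under 0.05 (SRSF2, SRSF3, SRSF8 and TRA2B, each lower). An exact sign-flip permutation test of 1 gene over 4 arrays cannot give a two-sided p below 0.13. The mean of each orientation is therefore given beside each result.

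Arrays 1 and 2 also had fewer detected probes: 5941 to 7403 probes per channel were well above background there, against 8982 to 9515 on arrays 3 and 4. The signals of negative control spots had an SD of 226 to 308 there, against 27.8 to 40.5 on arrays 3 and 4. This split of the arrays is the same as that by dye orientation, so their effects cannot be told apart. Outlier marks fell on 28.3% of the members on array 1, against 8.08% of all probes, and on 4.35% of them on array 2 and none on arrays 3 and 4. Of 14 genes typical of K562 and other erythroid cells 13 were on the array, and 12 were well above background on all 4 arrays in control cells, among them GATA1, KLF1, TFRC and the globins HBG1, HBE1 and HBZ. Of 10 markers of other cell types MS4A1, ALB, KRT5 and COL1A1 were not well above background on any array, whereas LYZ and EPCAM were on all of them.

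A stricter count asked for an adjusted p under 0.05 and the same direction on every measured array. By it, 2 members were higher (SRPK2 and SRSF5), a share of 4.88% against 13.4% of all probes. The same count gave 8 lower members, a share of 19.5% against 6.62% of all probes: CLK2, TRA2B, SRSF2, SRSF3, SRSF6, SRSF8, HNRNPUL1 and HNRPA3. Of these 8, CLK2, SRSF6, HNRNPUL1 and HNRPA3 lost the call when each array was centred on its median (adjusted p 0.37, 0.096, 0.13 and 0.057). The other 11 genes past the threshold had at least 1 array on the opposite side of 0. Of all members tested, called or not, 26.8% had the same direction on every measured array, against 25.2% of all probes.

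**Figure D1:**
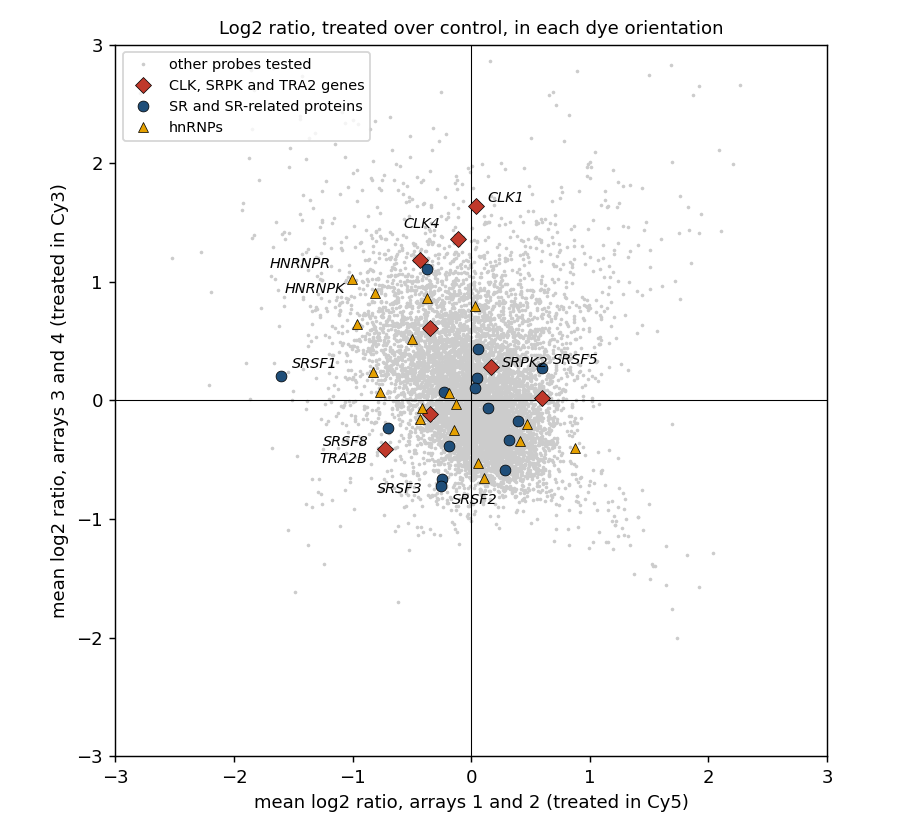
Mean log2 ratio (treated over control) on arrays 1 and 2 (x axis, treated RNA in Cy5) against arrays 3 and 4 (y axis, treated RNA in Cy3) for 41 members, coloured by family, and for the other probes tested in grey, of which 3 lie beyond the axes at 3. CLK1 and CLK4 lie near 0 on the x axis and above 1 on the y axis, SRSF1 the other way round at -1.61 and 0.21, while SRSF2, SRSF3, SRSF8 and TRA2B are below 0 on both axes.

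The windows upstream of the start of 6 genes that the results turn on are printed first, as RefSeq gives them on GRCh38.p14, each 250 bases long and read 5′ to 3′ on the strand of the gene. CLK1 (chr2:200864659-200864908 (minus strand)) and CLK4 (chr5:178627051-178627300 (minus strand)) had the highest ratios. SRSF1 (chr17:58007247-58007496 (minus strand)) had the lowest, SRSF3 (chr6:36594112-36594361 (plus strand)) and TRA2B (chr3:185938015-185938264 (minus strand)) fell in both orientations, and HNRNPA2B1 (chr7:26200747-26200996 (minus strand)) holds the only match among the members to the motifs searched, in capitals. For SRSF3 and TRA2B the Cy5 orientation was array 2 alone.
CLK1: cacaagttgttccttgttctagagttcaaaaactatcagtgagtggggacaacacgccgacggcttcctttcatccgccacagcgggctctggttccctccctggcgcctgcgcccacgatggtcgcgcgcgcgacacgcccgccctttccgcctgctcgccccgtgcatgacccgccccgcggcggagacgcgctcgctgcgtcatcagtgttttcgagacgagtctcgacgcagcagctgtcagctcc
CLK4: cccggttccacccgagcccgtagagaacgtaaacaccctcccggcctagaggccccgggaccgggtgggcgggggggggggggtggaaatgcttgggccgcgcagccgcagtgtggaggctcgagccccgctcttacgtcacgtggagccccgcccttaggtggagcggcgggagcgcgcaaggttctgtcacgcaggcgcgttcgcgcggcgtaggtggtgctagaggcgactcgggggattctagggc
SRSF1: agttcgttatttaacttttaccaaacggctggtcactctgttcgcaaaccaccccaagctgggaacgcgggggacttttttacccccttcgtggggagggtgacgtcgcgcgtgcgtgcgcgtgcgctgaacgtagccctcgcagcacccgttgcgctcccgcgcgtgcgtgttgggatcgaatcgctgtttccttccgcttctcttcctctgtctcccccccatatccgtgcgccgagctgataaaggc
SRSF3: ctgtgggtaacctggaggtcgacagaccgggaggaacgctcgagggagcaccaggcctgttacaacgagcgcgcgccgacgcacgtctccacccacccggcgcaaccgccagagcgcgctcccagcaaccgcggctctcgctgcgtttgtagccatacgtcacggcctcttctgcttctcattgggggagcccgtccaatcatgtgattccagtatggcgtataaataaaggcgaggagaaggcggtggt
TRA2B: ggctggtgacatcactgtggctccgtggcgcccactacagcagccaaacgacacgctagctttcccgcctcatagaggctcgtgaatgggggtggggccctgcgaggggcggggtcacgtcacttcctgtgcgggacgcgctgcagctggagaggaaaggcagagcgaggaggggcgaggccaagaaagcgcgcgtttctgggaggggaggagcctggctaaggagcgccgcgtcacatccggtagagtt
HNRNPA2B1: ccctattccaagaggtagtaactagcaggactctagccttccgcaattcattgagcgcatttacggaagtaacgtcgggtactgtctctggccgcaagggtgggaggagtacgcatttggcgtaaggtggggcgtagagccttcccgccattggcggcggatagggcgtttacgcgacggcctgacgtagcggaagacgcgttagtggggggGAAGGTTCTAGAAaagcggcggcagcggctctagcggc

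RefSeq windows were at hand for 40 of the 46 members. Each window ran from 250 bases before to 50 after the start and was searched on both strands. The motifs were the heat shock element (GAA, TTC and GAA, or TTC, GAA and TTC, with any 2 bases between them), the cAMP response element TGACGTCA and the composite element of ATF4 and C/EBP proteins, TGATGNAAT. The heat shock element was in 0.49% of 35116 windows of all genes and in that of HNRNPA2B1, starting 38 bases before the gene's start. The cAMP response element was in 1.85% and the composite element in 0.991% of all windows, and neither in a window of a member. These letters are a description and no evidence of binding, and HNRNPA2B1 itself did not pass the test (log2 ratio 0.03, adjusted p 0.85). The windows of the members had a median GC content of 64.8%, against 58.7% over all genes.

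Among the kinases and TRA2 genes, CLK1 and CLK4 had the largest ratios, and 5 of the 8 genes were higher and 2 lower at the threshold, against 24.3% and 13.0% of all probes. With the same direction asked of every array, 1 was higher (SRPK2) and 2 were lower (CLK2 and TRA2B). The median of the 8 was 0.27, against 0.02 over all probes tested. By orientation that median was -0.23 with treated RNA in Cy5 and 0.44 with treated RNA in Cy3. Both channels of CLK4 were well above background on 3 arrays, as were the controls of CLK1 and TRA2A, and the treated channel of TRA2A on 2.

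CLK1 codes for a kinase of the nuclear speckle that phosphorylates SR proteins and splices its own transcript in response to its activity. Its probe lies at chr2:201429912-201430703 of hg18 on the minus strand, a span of 792 bases that a probe of 60 bases covers only across a gap. CLK1 had log2 ratios of -0.04, 0.13, 1.49 and 1.80 on arrays 1 to 4. It was raised on arrays 3 and 4 and near 0 on arrays 1 and 2, and the arrays of the 2 orientations did not overlap. The fit gave 0.84 ± 0.08 (SE; SD 0.94, n = 4), or 1.79-fold, with an adjusted p of 0.00012, and a dye effect of -0.80.

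CLK4, the closest relative of CLK1, had the same pattern. Its log2 ratios were -0.26, 0.03, 1.22 and 1.5. The estimate was 0.62 ± 0.08 (SE; SD 0.87, n = 4) with an adjusted p of 0.00058, and the orientation means were -0.11 with treated RNA in Cy5 and 1.36 with treated RNA in Cy3. Its probe is at chr5:177972081-177972140 (hg18, minus strand).

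CLK3 went the other way between orientations, at 0.26, 0.93, -0.05 and 0.08. Only array 2 was far above 0. The estimate of 0.31 ± 0.10 (SE; SD 0.44, n = 4) passed at an adjusted p of 0.048 and was 0.14 without array 2, with an adjusted p of 0.16 (0.14 without array 3, 0.25 without array 4). CLK2 was below 0 on all 4 arrays, at -0.51, -0.18, -0.11 and -0.11. Its estimate was -0.23 ± 0.07 (SE; SD 0.19, n = 4) with an adjusted p of 0.041, and without array 1 it was -0.15 with an adjusted p of 0.12 (0.18 without array 3, 0.21 without array 4). With median centring it was -0.11. So the 4 CLK genes did not share a direction: 3 were called higher and 1 lower.

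SRPK2, a mainly cytoplasmic SR protein kinase, was above 0 on all 4 arrays at 0.12, 0.23, 0.13 and 0.42. Its estimate of 0.22 ± 0.07 (SE; SD 0.14, n = 4) had an adjusted p of 0.043, and it lost the call without array 2, 3 or 4 (adjusted p 0.073, 0.075 and 0.35). SRPK1, its relative, was at -0.23, -0.47, 0.62 and 0.60. The orientations of SRPK1 had opposite signs, and its estimate of 0.13 ± 0.07 (SE) did not pass (adjusted p 0.18).

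TRA2A and TRA2B bind purine-rich exonic enhancers and are close paralogs. TRA2A was at -0.60, -0.26, 0.99 and 1.38, below 0 with treated RNA in Cy5 and above it with treated RNA in Cy3. The estimate was 0.38 ± 0.09 (SE; SD 0.96, n = 4) with an adjusted p of 0.012 (0.14 without array 4). TRA2B, named SFRS10 on the array, was at -0.73, -0.42 and -0.40 on arrays 2, 3 and 4, and its spot on array 1 was marked. All 3 values were below 0. The estimate was -0.57 ± 0.08 (SE; SD 0.19, n = 3), or 1.48-fold lower, with an adjusted p of 0.0017. With the marked spot kept, array 1 read -0.13 and the estimate was -0.40 with an adjusted p of 0.028. The TRA2B probe is at chr3:187117971-187118030 (hg18, minus strand).

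**Figure D2:**
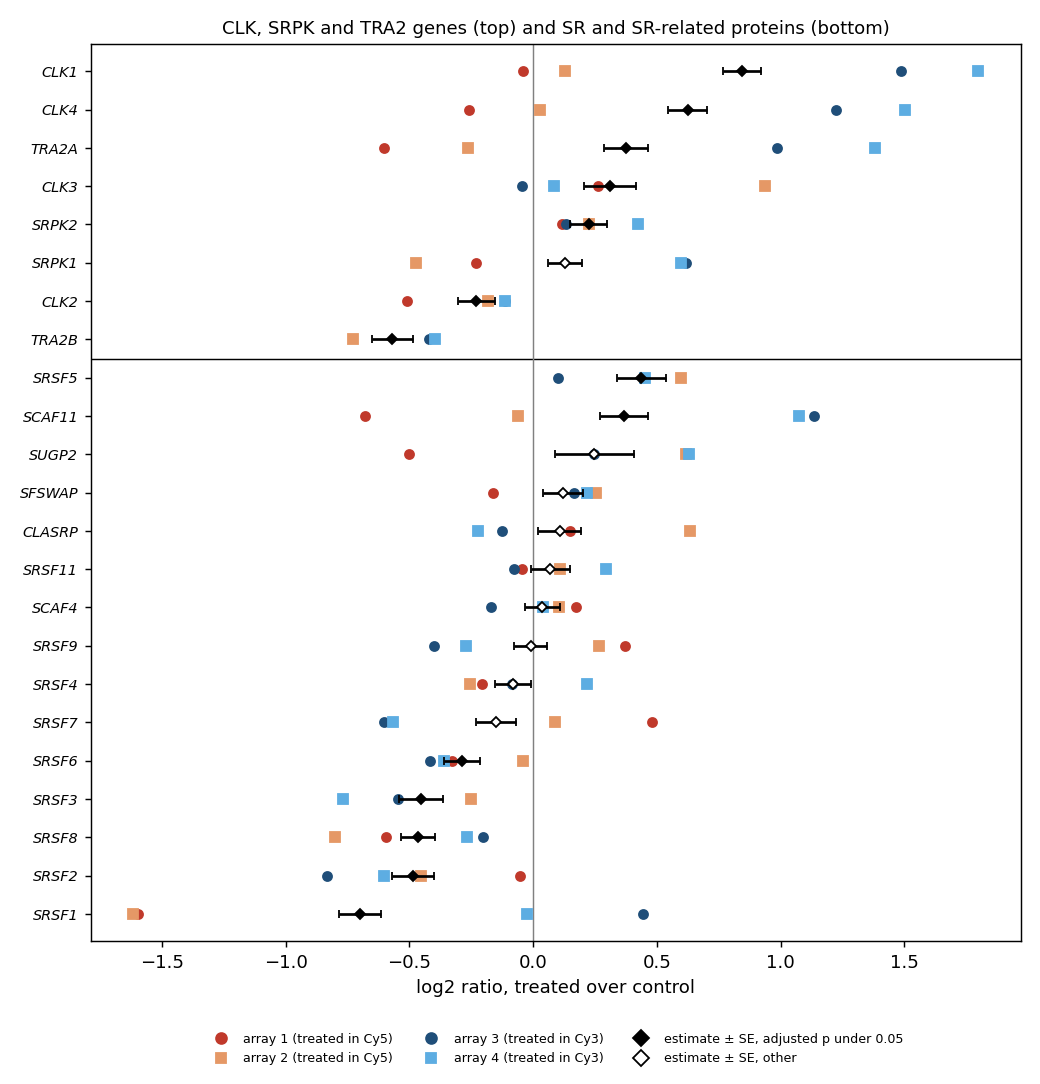
Log2 ratio (treated over control, x axis) of each CLK, SRPK and TRA2 gene and each SR or SR-related protein tested, with 1 coloured point per array and the estimate of the fit with its SE as a diamond, filled where the adjusted p was under 0.05. The points of CLK1, CLK4, TRA2A, SCAF11 and SRSF1 split by dye orientation, whereas all points of TRA2B, SRSF2, SRSF3, SRSF6 and SRSF8 lie left of 0.

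Of the SR and SR-related proteins, 15 of 16 were tested, 2 were higher and 5 lower. These were 13.3% and 33.3% of those tested, against 24.3% and 13.0% of all probes. Their median of -0.01 was close to that of all probes, 0.02, with -0.16, 0.09, -0.13 and -0.03 on arrays 1 to 4. The classical SR proteins, which now carry SRSF symbols, accounted for all 5 falls: 5 of 10 were lower, 1 was higher, and their median was -0.22, with -0.21 and -0.29 in the 2 orientations. The 5 SR-related genes (SCAF11, SUGP2, SFSWAP, CLASRP and SCAF4) lay between 0.04 and 0.37, and SCAF11 was the only call among them. This split by symbol was made after the values were seen and was not tested.

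SRSF1, the prototype SR protein also known as ASF/SF2, had the largest fall of all members. Its log2 ratios were -1.60, -1.62, 0.44 and -0.03. The ratio was far below 0 on arrays 1 and 2, above 0 on array 3 and near 0 on array 4, so the fall was measured in 1 orientation only. The estimate was -0.70 ± 0.09 (SE; SD 1.07, n = 4) with an adjusted p of 0.00046, beside a dye effect of -0.91.

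SRSF2 (SC35), which binds exonic enhancers and is a standard marker of nuclear speckles, was at -0.05, -0.45, -0.83 and -0.60. Only array 1 was close to 0. The estimate was -0.49 ± 0.08 (SE; SD 0.33, n = 4), or 1.40-fold lower, with an adjusted p of 0.0027. SRSF8, an intronless copy of SRSF2 named SFRS2B on the array, was at -0.60, -0.80, -0.20 and -0.27. The estimate was -0.47 ± 0.07 (SE; SD 0.28, n = 4) with an adjusted p of 0.0012. The 2 probes lie on different chromosomes, at chr17:72242196-72242255 and chr11:94441392-94441451 of hg18. Among all 1035 pairs of member probes the longest stretch in common was 12 of 60 bases, between HNRNPK and SRSF2.

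SRSF3 (SRp20), the smallest SR protein and also an mRNA export adaptor, was at -0.25, -0.55 and -0.77 on arrays 2, 3 and 4. Each value was below 0. The estimate was -0.45 ± 0.09 (SE; SD 0.26, n = 3) with an adjusted p of 0.0070, and the marked spot of array 1, when kept, read -0.17. SRSF6 (SRp55) was at -0.33, -0.04, -0.42 and -0.36, so array 2 was near 0 and the rest alike. The estimate was -0.29 ± 0.07 (SE; SD 0.17, n = 4) with an adjusted p of 0.016 (0.11 without array 3 or array 4).

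SRSF5 (SRp40) was the only SRSF gene called higher. It was at 0.60, 0.10 and 0.45 on arrays 2, 3 and 4, all above 0. The estimate was 0.44 ± 0.10 (SE; SD 0.25, n = 3) with an adjusted p of 0.012, and with the marked spot of array 1 kept, at 0.16, the estimate was 0.34 with an adjusted p of 0.032. The call was lost with Feature Extraction's processed signals (adjusted p 0.063) and with the series table (0.068). SCAF11 (SFRS2IP), which interacts with SRSF2, was at -0.68, -0.06, 1.14 and 1.08. It was below 0 in 1 orientation and above 1 in the other, with an estimate of 0.37 ± 0.10 (SE; SD 0.89, n = 4) and an adjusted p of 0.020 (0.11 without array 3 or array 4).

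The other 8 SR and SR-related genes did not pass, with estimates from -0.15 (SRSF7) to 0.25 (SUGP2). The 4 brightest of them were SRSF7, SRSF9, SRSF11 and SFSWAP. SRSF7 (9G8) was at 0.48, 0.09, -0.60 and -0.57, with an adjusted p of 0.17. SRSF9 (SRp30c) was at 0.37, 0.26, -0.40 and -0.27, with an estimate of -0.01. Both were above 0 with treated RNA in Cy5 and below 0 with treated RNA in Cy3, the opposite order to CLK1. SRSF11 had an estimate of 0.07 and SFSWAP, a regulator of splicing related to a fly gene, of 0.12.

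The hnRNPs had the narrowest range of estimates of the 3 families. Of 22 genes 18 were tested, 2 were higher and 5 lower, and the estimates spanned -0.35 to 0.41. The calls were 11.1% and 27.8% of the 18, against 24.3% and 13.0% of all probes. The median was -0.07, with -0.28 in the Cy5 orientation and 0.01 in the Cy3 orientation. The dye term passed for 14 of the 18 (77.8%), more often than for all probes (58.2%), and the median size of the dye effect was 0.38 against 0.24. Those shares were not tested against each other.

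HNRNPLL, known for regulating exons of CD45 in lymphocytes, had the largest rise among hnRNPs. Its log2 ratios were 0.12, -0.06, 0.89 and 0.70. It was near 0 on arrays 1 and 2 and raised on arrays 3 and 4, with an estimate of 0.41 ± 0.07 (SE; SD 0.45, n = 4) and an adjusted p of 0.0026. It was well above background on 2 arrays in each channel. HNRNPH2, of the family that binds runs of G, was at -0.41, -0.34, 0.83 and 0.89. Its orientations had opposite signs, and the estimate was 0.24 ± 0.06 (SE; SD 0.72, n = 4) with an adjusted p of 0.018 (0.10 without array 3, 0.16 without array 4).

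HNRNPH3, of the same family, was at -0.82, -0.83, 0.18 and 0.30. It fell by 0.29 on the log2 scale (SE 0.07; SD 0.62, n = 4; adjusted p 0.0092), again with opposite signs between orientations. Its adjusted p was 0.098 without array 3 and 0.067 without array 4. HNRNPH1, the most studied member of this family, was at -0.69, -0.30, 0.63 and 0.40, with an estimate of 0.01 (adjusted p 0.94). All 3 H genes tested were thus below 0 with treated RNA in Cy5 and above 0 with treated RNA in Cy3, and they differed in the size of each side. Mixed signs were common on these arrays: only 25.2% of all probes tested had the same direction on every measured array.

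HNRNPDL and HNRNPD are paralogs that bind AU-rich RNA, and their probes lie 66.4 kb apart on chromosome 4 of hg18. HNRNPDL was at -0.69, -0.84, 0.13 and 0.01, low on arrays 1 and 2 and near 0 on the others. Its estimate of -0.35 ± 0.07 (SE; SD 0.49, n = 4) had an adjusted p of 0.0047 (0.075 without array 4). HNRNPD was at -0.13, -0.21 and 0.14 on arrays 2, 3 and 4, with an estimate of -0.08 (adjusted p 0.55). Other members less than 1000 kb apart also differed in their estimates. On chromosome 2 HNRNPLL and SRSF7 lie 166.8 kb apart, with 0.41 and -0.15. On chromosome 5 CLK4 and HNRNPAB lie 405.4 kb apart, with 0.62 and -0.20.

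HNRNPU, a scaffold protein of the nuclear matrix, was at -0.02, 0.24, -0.74 and -0.56. It was low on arrays 3 and 4 only, with an estimate of -0.27 ± 0.07 (SE; SD 0.46, n = 4) and an adjusted p of 0.021 (0.17 without array 3, 0.090 without array 4). Its relative HNRNPUL1 was at -0.40, -0.44, -0.00 and -0.12, below 0 on all 4 arrays though by under 0.01 on array 3. The estimate for HNRNPUL1 was -0.24 ± 0.07 (SE; SD 0.21, n = 4) with an adjusted p of 0.021 (0.093 without array 3, 0.19 without array 4). HNRNPUL2 was at -0.30, -0.07, 0.05 and 0.07 and did not pass (adjusted p 0.51).

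HNRPA3, an hnRNP of the A/B type for which only the array's own name was used, was at -0.14, -0.73, -0.14 and -0.18. Array 2 stood apart from the rest. The estimate was -0.30 ± 0.10 (SE; SD 0.29, n = 4) with an adjusted p of 0.041, and without array 2 it was -0.15 with an adjusted p of 0.13 (0.15 without array 3, 0.20 without array 4).

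**Figure D3:**
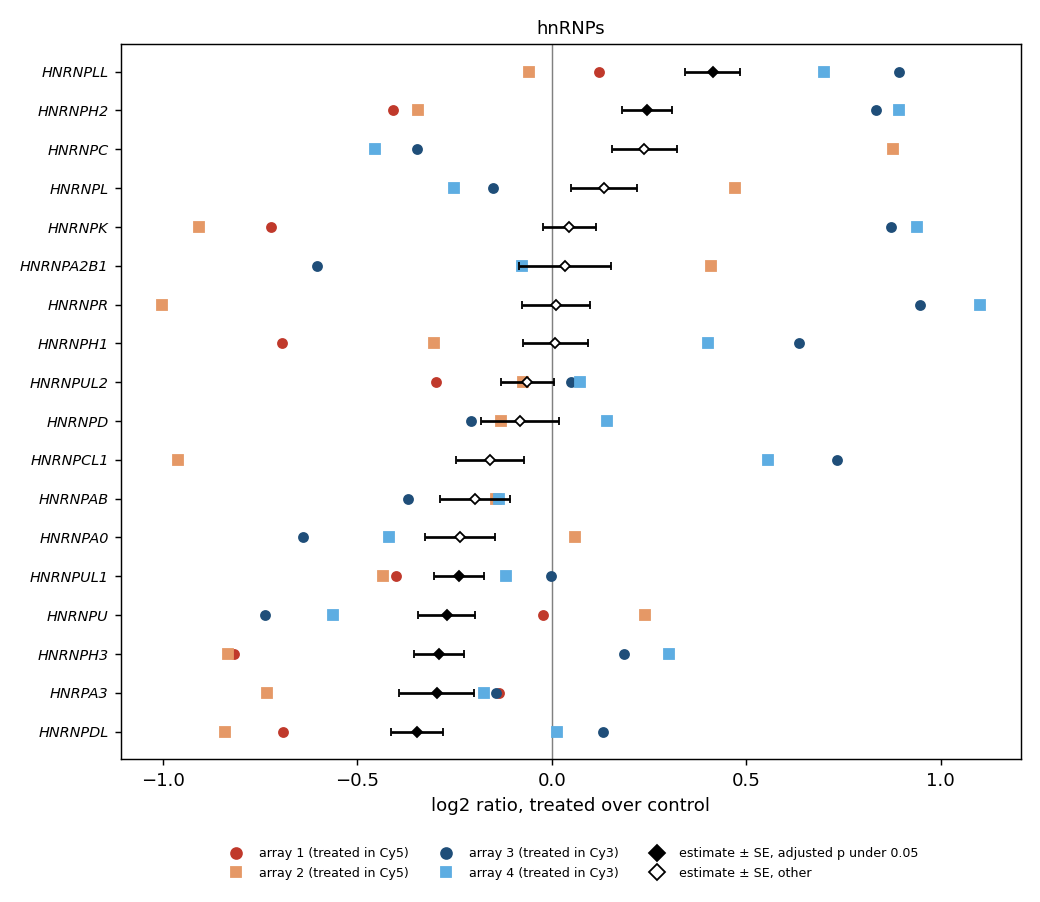
Log2 ratio (treated over control, x axis) of the 18 hnRNPs tested, with 1 coloured point per array and the estimate of the fit with its SE as a diamond, filled where the adjusted p was under 0.05. HNRNPK, HNRNPR and HNRNPCL1 lie below 0 on the arrays with treated RNA in Cy5 and above 0 on those with treated RNA in Cy3, with estimates between -0.16 and 0.05.

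The other 11 hnRNPs did not pass, with estimates from -0.24 (HNRNPA0) to 0.24 (HNRNPC). The 4 brightest of them were HNRNPC, HNRNPA2B1, HNRNPD and HNRNPR. HNRNPC, which binds U-rich tracts as a tetramer, was at 0.88, -0.35 and -0.45 on arrays 2, 3 and 4, with an adjusted p of 0.061. HNRNPA2B1 was at 0.41, -0.61 and -0.08 on the same arrays. HNRNPR, a relative of SYNCRIP, was at -1.0, 0.95 and 1.1, and its estimate of 0.01 was the mean of orientation means of -1.0 and 1.02. HNRNPK, a poly(C)-binding protein, was chosen after its values were seen: it was at -0.72, -0.91, 0.87 and 0.94, with an estimate of 0.05 ± 0.07 (SE; SD 1.0, n = 4) and an adjusted p of 0.63. Ratios near 1 in size on single arrays thus went with estimates near 0.

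The base composition of the probes moved with the dye effect. Over the 41 members, the dye effect and the GC content of the probe correlated at r = 0.52 (rho = 0.48), and over all 8852 probes at r = 0.60 (rho = 0.68). The treated-over-control estimate and GC content correlated at -0.02 over the members and at -0.24 over all probes. The probes of the members had a median GC content of 38.3%, against 43.3% over all probes. These are correlations across probes of the same 4 arrays, not across independent samples, and the part of base composition in the results was not tested.

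The listed probe positions were set against the strand of the gene in RefSeq for the 40 members with a window. For 39 of them the strands were the same. The probe for HNRNPM, at chr19:8415491-8415550 of hg18, is listed on the minus strand whereas RefSeq places HNRNPM on the plus strand, and that probe was not well above background on any array. The positions of 4 probes (CLK1, HNRNPD, HNRNPUL2 and the one for HNRPA3) span more than the 60 bases of the probe. Which part of each transcript the probes hit was not annotated on hg18 here.

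The rest of the splicing pathway was looked at in 4 lists without the members, whose counts stand against 24.3% higher and 13.0% lower over all probes. Of the proteins of the U1, U2, U4, U5 and U6 snRNPs, which form the core of the spliceosome, 37 were tested, none was higher and 1 was lower at the adjusted threshold in limma. At an unadjusted p under 0.05 these were 2 and 3, and the median was -0.02. The gene called lower was TXNL4A, a U5 snRNP protein, at -1.0, -0.99, 0.59 and 0.32, with an estimate of -0.27 (adjusted p 0.019).

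Of 26 PRP proteins and factors of the catalytic spliceosome 9 were higher and 2 lower, with a median of 0.06. BCAS2, of the PRP19 complex, was at 0.45, 0.69 and 1.05 on arrays 2, 3 and 4, with an estimate of 0.66 ± 0.10 (SE; SD 0.30, n = 3) and an adjusted p of 0.0021. CRNKL1 was at -0.23, -0.05, 1.32 and 1.18, with an estimate of 0.56 (adjusted p 0.00049). PRPF19, the ubiquitin ligase at the core of that complex, was at -0.15, -0.50, -0.72 and -0.45, with an estimate of -0.45 (adjusted p 0.0035). PRPF4 had an estimate of -0.25 (adjusted p 0.029) and opposite signs between orientations.

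Of 20 genes of the exon junction complex, mRNA export and nonsense-mediated decay 2 were higher (UPF2 at 0.30 and NXF1 at 0.24, adjusted p 0.024 and 0.033) and 2 lower (NXT1 at -0.37 and ACIN1 at -0.24, adjusted p 0.0059 and 0.027). UPF2, NXF1 and NXT1 had the same direction on all 4 arrays and ACIN1 did not. NXF1 and NXT1 form the export receptor for mRNA.

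Of 47 other splicing regulators 3 were higher and 8 lower, with a median of -0.03. MBNL2, a regulator that binds YGCY motifs and is known from myotonic dystrophy, was at 1.18, 0.77, 1.96 and 1.97. It was raised on every array, with an estimate of 1.47 ± 0.08 (SE; SD 0.60, n = 4), or larger than that of any member, and an adjusted p of 1.2e-05. RBM15 had an estimate of 0.32 (adjusted p 0.039). RBM38 was at -0.45, -0.58, -0.67 and -0.69, with an estimate of -0.60 ± 0.07 (SE; SD 0.11, n = 4) and an adjusted p of 0.00027. SRRM1, a coactivator that binds SR proteins, was at -0.75, -0.70, -0.33 and -0.03, with an estimate of -0.45 (adjusted p 0.0019).

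**Figure D4:**
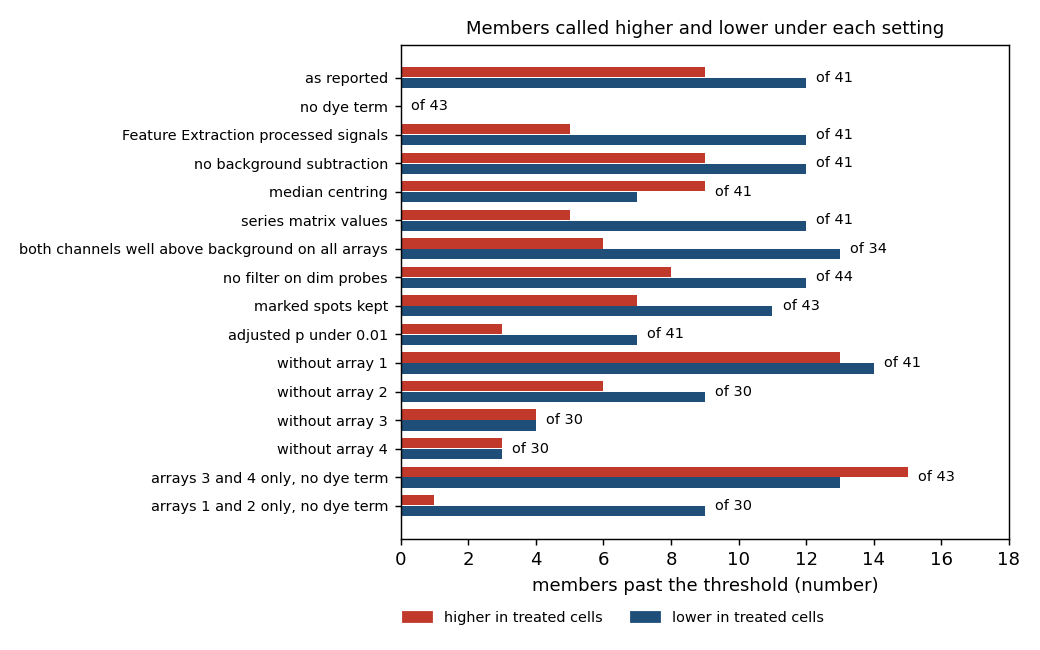
Number of members past the threshold (x axis), higher in red and lower in blue, under the reported settings and each alternative (y axis), with the number of members tested beside each pair of bars. The counts were 9 and 12 as reported, 0 and 0 without a dye term, 15 and 13 on arrays 3 and 4 alone, and 1 and 9 on arrays 1 and 2 alone.

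The split of calls into higher and lower depended on the scaling. It was 9 to 12 as reported, 9 to 7 with each array centred on its median, and 5 to 12 with the signals that Feature Extraction had normalized. The shares of all probes moved likewise, from 24.3% higher and 13.0% lower to 26.7% and 6.73% with median centring and to 17.8% and 13.0% with the processed signals. With these signals TRA2A, SRPK2, SRSF5, HNRNPH2 and HNRPA3 lost their call (adjusted p 0.063 to 0.20), and with median centring HNRNPU also did (0.20). On arrays 3 and 4 alone, where dye and treatment cannot be told apart, 15 of 43 members were higher and 13 lower, against 38.3% and 31.4% of all probes. Arrays 1 and 2 alone, with the same limit, gave 1 higher and 9 lower of 30, against 16.5% and 17.1% of all probes. CLK1, CLK4, HNRNPLL, SRSF1, SRSF2, SRSF3, SRSF8 and TRA2B kept their call at an adjusted p under 0.01, under each other normalization and filter and with any 1 array left out, as far as they could be fitted, but not without a dye term. SRSF3, SRSF5 and TRA2B were measured on 3 arrays, so that leaving out array 2, 3 or 4 left them no test. Array 2 alone gave their Cy5 orientation, so only arrays 3 and 4 added to the spread of their ratios. Leaving out array 1, where their spots were marked, left their estimates unchanged. CLK1, CLK4 and HNRNPLL did not pass the filter on both channels, so that setting left them no test.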

How the data were processed

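Arrays were scanned and read by the authors with Agilent Feature Extraction 9.5.1.1, and the deposited files hold the mean intensity and local background of each spot in both channels, with positions on hg18, plus the intensity signals and log10 ratio that the software had processed. The deposited series table holds log10 ratios of treated over control. From the intensities, background was corrected with normexp (offset 50), then loess (span 0.3) was run within arrays on gene spots, in limma 3.58.1 (R 4.3.3). Spots marked as outliers were dropped, and probes had to be well above background on 2 or more arrays in 1 or both channels. limma fitted a treatment and a dye term over 8852 probes on 4 arrays, with p-values adjusted by Benjamini-Hochberg over all of them. Where a spot was dropped, the estimate is the mean of the orientation means over the arrays left. The script was tested on simulated data. The study collected 4 samples of each kind, but the labels do not tie the arrays to cultures. With the dye term fitted, p-values measure the spread between arrays of the same orientation, which may be technical. The difference between orientations goes into the dye term and is not part of that spread. The number of arrays limits the precision.

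Accessions gave 12002 of 14297 probes their current symbol, and older symbols or the array's own name were used for the rest. Members and lists were chosen with earlier results of these data known. Named were all CLK, SRPK and TRA2 genes, every SR protein and hnRNP past the threshold (up to 8 in each direction), the 4 brightest of the others in each family, and the 2 largest calls in each direction of each other list. Cell markers and promoter windows (RefSeq, GRCh38.p14) were looked up for description only. Protein sequences were not analysed here.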

Additional observations from a re-analysis of the deposited data

Results flagged for a closer look

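Of 33 members measured on all 4 arrays, 1 had an array far from the other 3: for HNRPA3, the gap between array 2 (log2 ratio -0.73) and its nearest neighbour was 0.936 times the range of its 4 arrays, which is over Dixon's limit for 4 values. Chance gives about 1 such case in 20 groups of arrays, and its cause was not tested.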

How the results depend on the processing

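Without a dye term 0 members were higher and 0 lower. A threshold of 0.01 on the adjusted p gave 3 and 7, against 15.3% and 5.29% of all probes. Feature Extraction's processed signals gave 5 higher, as did the series table, each with 12 lower. Median centring left 7 lower. Leaving out 1 array in turn gave 3 to 13 higher and 3 to 14 lower members. The highest counts came without array 1 (13 and 14 of 41 tested), and the lowest without array 4 (3 and 3 of 30) and without array 3 (4 and 4 of 30). All probes moved likewise, with 29.4% higher and 16.7% lower without array 1. Without array 4 these shares were 12.6% and 3.54%, and without array 3 15.5% and 5.54%. Without array 2 the counts were 6 and 9 of 30, against 24.9% and 15.8% of all probes. Where each array had to show both channels above background, there were 6 higher and 13 lower of 34, against 24% and 19.2% of all probes. Added after seeing the data, arrays 3 and 4 alone gave 15 higher and arrays 1 and 2 alone gave 1 higher and 9 lower. Without background subtraction the counts were 9 and 12 of 41, against 24.1% and 12.8% of all probes. Without the filter on dim probes they were 8 and 12 of 44, against 15.9% and 8.16%. With marked spots kept they were 7 and 11 of 43, against 21.1% and 11.7%. Each of these member counts stayed within 1.5 times the one reported. The 3 family medians moved by less than their SD over arrays (0.11 for SR and SR-related proteins, 0.21 for hnRNPs, 0.35 for CLK, SRPK and TRA2 genes) under the alternatives that used arrays of both orientations, and none of the 22 named genes changed direction under these. Within 1 orientation they could. The median of CLK, SRPK and TRA2 genes was -0.23 on arrays 1 and 2, against 0.27 as reported. CLK4 (-0.11), TRA2A (-0.43), SCAF11 (-0.37) and HNRNPH2 (-0.38) were below 0 there though called higher. HNRNPU (0.11) was above 0 there though called lower. On arrays 3 and 4, SRSF1 (0.21), HNRNPH3 (0.24) and HNRNPDL (0.07) were above 0 though called lower. Slide and scan as a block were not run. A block of arrays 1 and 2 against arrays 3 and 4 would be the same as dye orientation and could not be told apart from it. Every ratio already pairs treated and control RNA on the same array. No further pairing was run, because the design holds a single group of arrays. Signal over background limits arrays 1 and 2 most.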
